A study of Gallus gallus with 6 samples.

Results

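The surface ectoderm is the outer cell sheet of the embryo. It forms the epidermis, and in the head it also thickens into placodes, the patches from which the nasal epithelium, the lens and parts of the cranial sense organs arise. Facial ectoderm is a known source of FGF and BMP signals to the mesenchyme beneath it, while trunk ectoderm lies over the somites and is known in the chick to signal to them through WNT6. HOX genes are homeobox genes that mark position along the body axis, and the tissue in front of the hindbrain is known for lacking their expression.

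Surface ectoderm was selected on its own transcripts, in chicken embryos (Gallus gallus domesticus, "Hubbard", both sexes): its members were chosen by marker UMIs, as every cell barcode with at least 1 UMI of EPCAM, an epithelial adhesion molecule, and at least 1 UMI in 2 or more of KRT18, KRT7, KRT24 and CLDN1, which are 3 keratins and a tight junction protein. A UMI is a molecular tag that lets each captured transcript be counted once. The rule was met by 499 of 17268 barcodes. KRT24 carries the symbol KRT19 in the deposited gene table, and RefSeq lists KRT19 as another name of KRT24 (GRCg7b annotation).

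The frontonasal prominence gave 3 nasal libraries, at HH15, HH18 and HH22 in the Hamburger-Hamilton staging of the chick. The dorsal brachial trunk gave 3 somite libraries, at HH12, HH15 and HH20. The embryos were untreated, and each stage was a single 10x Chromium library of trypsin-dissociated tissue, so stage and library cannot be told apart and the stages of the locations match only at HH15. The paper states that the tissue of each sample was pooled from several embryos of the same stage, but not how many. No p-value measures the spread between embryos, and those between the locations measure the spread between libraries. Any pair of libraries shared between 2 and 22 barcode sequences, and 0 ectoderm barcodes were ectoderm in another library.

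The nasal libraries held 94 ectoderm barcodes of 2826 at HH15, 110 of 4760 at HH18 and 18 of 1420 at HH22, 222 in all. The somite libraries held 189 of 3193 at HH12, 82 of 3191 at HH15 and 6 of 1878 at HH20, 277 in all. Summed over the ectoderm of a library, depth ran from 28151 UMIs (somite HH20) to 1556833 UMIs (somite HH12). At somite HH20 a single UMI was worth 35.5 CPM (counts scaled to a total of 1000000), and that library was left out of the tests, which require 10 ectoderm barcodes per library. Its levels are given beside the others as a description.

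Ectoderm barcodes were deeper than the other barcodes of their libraries, with medians of 4712 to 7360.5 UMIs against 2203 to 3467.5. Barcodes with a mitochondrial share under 1% made up 87.2%, 84.5% and 77.8% of nasal ectoderm and 47.6%, 78.0% and 66.7% of somite ectoderm, in stage order, but 13.8% to 33.3% of the rest. Somite HH12 ectoderm therefore stood apart, with most of its barcodes above that share. Mitochondrial share moved with both comparisons below, and its part in them was not tested beyond the fits restricted to barcodes under 1%.

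**Figure D1:**
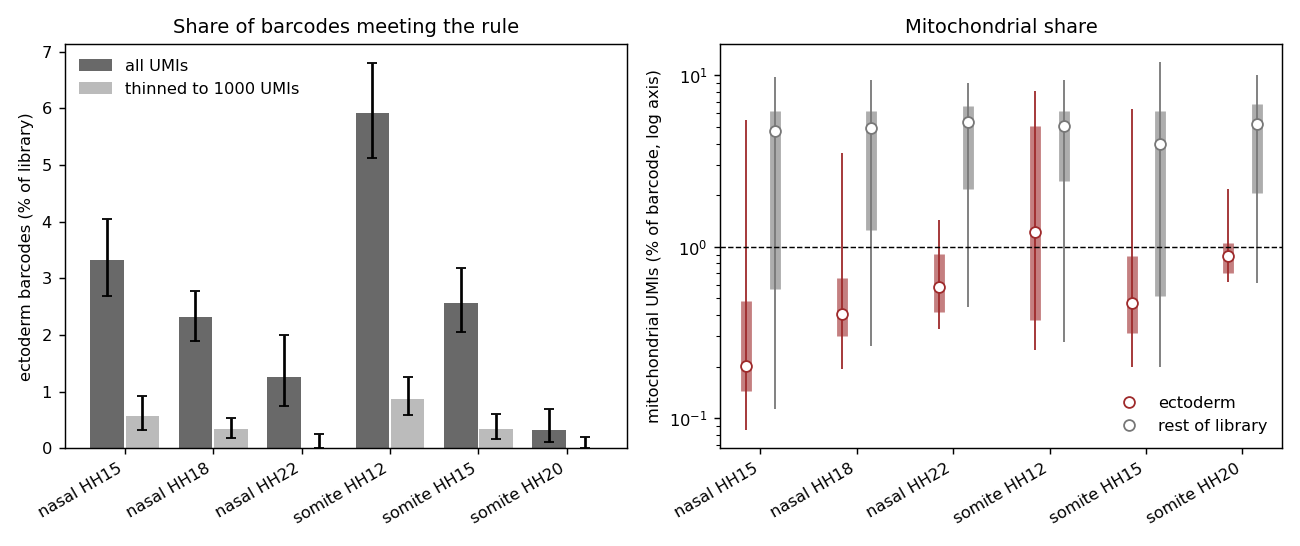
Left, percent of barcodes of each library that met the ectoderm rule (dark bars), and after each barcode was thinned to 1000 UMIs (light bars), with exact 95% binomial intervals. Right, mitochondrial UMIs as a percent of each barcode on a log axis (circle, median; thick line, 25th to 75th percentile; thin line, 5th to 95th percentile; dashed line, 1%); the ectoderm medians run from 0.201% to 1.22% and the medians of the rest from 3.99% to 5.32%.

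The ectoderm share fell into no clear order by location. It was 3.33% (exact 95% interval 2.70 to 4.06), 2.31% (1.90 to 2.78) and 1.27% (0.753 to 2.0) of barcodes in nasal HH15, HH18 and HH22. It was 5.92% (5.13 to 6.79), 2.57% (2.05 to 3.18) and 0.319% (0.117 to 0.694) in somite HH12, HH15 and HH20. The locations overlapped: the mean was 2.30% ± 1.03 (SD, n = 3) in nasal and 2.94% ± 2.82 (SD, n = 3) in somite libraries, with a two-sided exact permutation p of 0.8, where 0.1 is the smallest p that 3 against 3 allows. Without somite HH12 the nasal mean was the higher by 0.857 percentage points, against 0.635 points lower with all libraries. Thinned to 1000 UMIs per barcode, 16, 16 and 0 nasal and 28, 11 and 0 somite barcodes met the rule, so the shares depend on depth. Intervals cover counting error only.

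The label was checked against genes outside the rule, as a description, since the rule itself separated these barcodes from the rest. TP63, the transcription factor of epidermal progenitors, stood at 55.8, 98.2 and 83.5 CPM in nasal and 82.2, 150.4 and 249 CPM in somite ectoderm, against 1.98 to 14.3 CPM in the rest. KRT14 and KRT17, keratins of basal epithelium, were likewise at least 2-fold higher in the ectoderm of all 6 libraries. Other listed markers were less clear. Of 4 ectodermal transcription factors with 10 CPM in ectoderm or rest of every library, only TP63 was 2-fold higher throughout. Of 4 such junction genes 0 were. The ectodermal factors summed to 213 CPM in nasal HH22 ectoderm against 317 CPM in its rest. CDH1, a junction gene, was at 0 CPM in nasal HH22 ectoderm. TFAP2A, a factor of both ectoderm and neural crest, stood at 67.2, 71.8 and 18.6 CPM in nasal ectoderm against 71.4, 63.6 and 29.8 CPM in its rest. In the somite libraries it was higher in ectoderm, at 83.5, 50.8 and 142 CPM against 11.9, 20.4 and 14.6 CPM.

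Named against the rest were the 15 genes with the highest lowest fold among those reaching 50 CPM in the ectoderm of every library, and 11 of them were 2-fold higher throughout. Genes that were at least 2-fold higher in ectoderm in 6 of 6 libraries, at 10 CPM or more in the higher population, numbered 35 of 5223, or 0.67%, and 126 genes (2.41%) were at least 2-fold lower. SMAGP, a small membrane glycoprotein of epithelial cells, ran 13.9- to 169-fold above the rest, and TP63 10.5- to 49.4-fold. ANXA2, a membrane-binding annexin, ran 10.1- to 33.3-fold above it. The S100 calcium-binding proteins S100A11 and S100A6 reached at least 7.0-fold and 3.97-fold, and FABP3, a fatty acid carrier, at least 4.67-fold. MPZL3, a membrane protein of keratinocytes, reached at least 9.87-fold. CSRP2, AP1S3, NREP and TMSB15B had lowest folds between 2.09 and 3.96. SH3BGRL3, TXNDC17, GPX1 and MYL9 fell short of 2-fold in at least 1 library, with lowest folds between 1.90 and 1.97. Among the genes 2-fold lower were PDGFRA, TWIST1, PRRX1 and COL1A1, all known from mesenchyme, and 9 mitochondrially encoded genes.

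**Figure D2:**
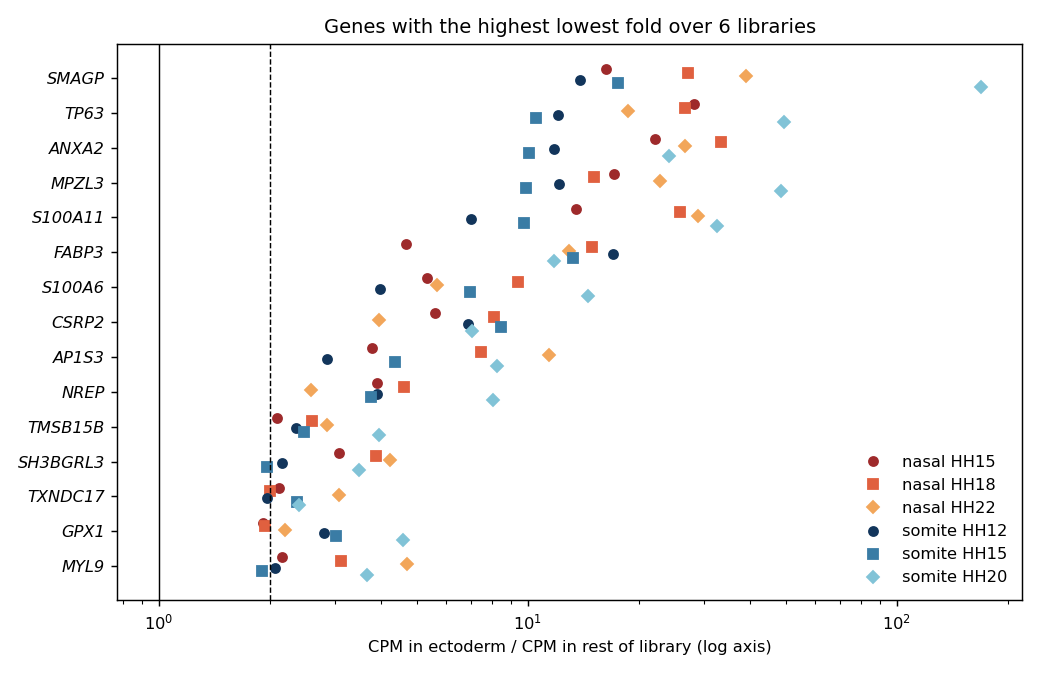
Ratio of CPM in ectoderm to CPM in the rest of the same library (log axis) for the 15 genes with the highest lowest ratio, 1 point per library; solid line, ratio 1; dashed line, ratio 2. SMAGP, TP63 and ANXA2 lie above 10 in all 6 libraries, and SH3BGRL3, TXNDC17, GPX1 and MYL9 lie between 1.90 and 1.97 at their lowest.

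Compared only with barcodes under 1% mitochondrial, the folds were smaller. TP63 then ran 3.70- to 23.4-fold, ANXA2 4.12- to 12.3-fold and SMAGP 4.66- to 67.3-fold above the rest. TMSB15B fell to 1.10- to 2.43-fold and CSRP2 to 0.961- to 5.42-fold. The number of genes 2-fold higher was then 23 and of genes 2-fold lower 14, of 4289, and these held 5 of the 126 genes that had been lower.

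The levels of the rule's own genes are a description. EPCAM stood at 385, 423 and 334 CPM in nasal and 254, 274 and 284 CPM in somite ectoderm. KRT18 stood at 383, 428 and 278 CPM in nasal and 696, 784 and 284 CPM in somite ectoderm, and KRT7 at 186, 196 and 18.6 CPM against 319, 359 and 142 CPM. KRT24 went the other way, at 948, 1102 and 899.8 CPM against 606, 555 and 639 CPM. CLDN1 overlapped between locations, at 137, 186 and 167 CPM against 205, 135 and 35.5 CPM. The rest of the early somite libraries also held KRT18, at 269 and 172 CPM at HH12 and HH15 but 7.74 CPM at HH20, and 3.82 to 20 CPM in the nasal libraries.

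At the edge of the rule, 109 nasal and 78 somite barcodes had EPCAM and exactly 2 of the 4 genes, with TP63 at 57.5, 109 and 93.1 CPM in the nasal and 42.4, 128 and 320.4 CPM in the somite libraries. Just outside, 92 nasal and 144 somite barcodes had EPCAM and 1 of the 4, with TP63 at 5.85, 31.3 and 54.9 CPM and at 2.05, 19.2 and 214 CPM. TP63 was thus lower just outside in every library, but the gap was small at somite HH20, where 10 barcodes lay outside. ANXA2 fell from 1081 to 287 CPM across the edge at nasal HH15 but only from 1042 to 879 CPM at nasal HH22.

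Markers of other cell types were present in part. The neuronal marker rule (2 or more of TUBB3, ELAVL3, ELAVL4, STMN2 and DCX) was met by 10, 12 and 0 nasal and 24, 13 and 1 somite ectoderm barcodes. The summed level of the 20 neural genes in the files was 1511.5, 1179 and 1345 CPM in nasal ectoderm, against 1454, 1318 and 776 CPM in its rest. In the somite libraries it was 1629.6, 1438 and 888 CPM in ectoderm, against 939, 1199.7 and 1949 CPM. It was thus above its own rest at nasal HH15 and HH22 and at somite HH12 and HH15. The summed level of the 21 mesenchyme genes was 495 to 1067 CPM in nasal and 462 to 844 CPM in somite ectoderm, against 1506 to 2469 CPM in the rest. Haemoglobin and other blood genes summed to 509 to 5630.4 CPM in nasal and 34.0 to 7018 CPM in somite ectoderm. The part of these transcripts in the location differences was not tested beyond one fit. SOX10 of the neural crest list, KDR and TIE1 of the endothelial list and CLDN18 of the endoderm list were at 0 UMIs in all ectoderm. Other genes of these lists were found. Of 8 neural crest, 11 endothelial and 18 endoderm genes in the files, nasal ectoderm held UMIs of 4, 7 and 2. Somite ectoderm of HH12 and HH15 held UMIs of 5, 7 and 12. There the endoderm genes summed to 82.9 and 65.8 CPM, against 125 and 112 CPM in the rest, and to at most 5.86 CPM in nasal ectoderm. Leaving out the barcodes that met another cell type's rule left 183 genes called between the locations.

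Between the locations, 212 of 5021 genes (4.22%) passed edgeR's quasi-likelihood test on summed counts of 3 nasal and 2 somite libraries at an adjusted p under 0.05, the 5 rule genes aside. Nasal ectoderm was higher in 75 (1.49%) and somite ectoderm in 137 (2.73%), and the median log2 fold change of all genes tested was -0.02. The groups did not overlap in 32.1% of genes. The count rested on few libraries: it was 37 without nasal HH15, 30 without nasal HH18, 214 without nasal HH22, 48 without somite HH12 and 416 without somite HH15, where the lone somite library was assumed to vary like the others. DESeq2 called 85 genes, and 53 were called with the HH stage as a covariate. Of 55 called genes taken by the naming rule, 14 lost their call with DESeq2 and 22 with the stage covariate.

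Some facial and placodal transcription factors were higher in nasal ectoderm. Of 60 genes of this list in the files, 18 passed the filter on low counts, 8 were higher in nasal and 1 (EMX2) in somite ectoderm, with a list median of 1.0 on the log2 scale. PITX1, SIX3, SIX6, EYA2 and SOX2 could pass that filter only through nasal counts, and EMX2 only through somite counts. The filter thus set the direction of these genes, which enter the count and the median. PAX6 could not have passed on its somite counts alone, so the filter favoured its nasal direction. PITX1, a homeodomain factor of the oral region and the hindlimb, had been named as a marker with these data known, so its level is a description of the marker as much as a result. It stood at 70.1, 135 and 102 CPM in nasal ectoderm and at 3.21, 0 and 0 CPM in somite ectoderm. The groups did not overlap, with a log2 fold change of 4.44 ± 0.58 (SE) and an adjusted p of 0.00023 in edgeR. As PITX1 was a chosen marker and its direction was set by the filter, this p-value is a description only. At HH15, the stage sampled at both locations, that is 70.1 against 0 CPM.

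PITX1 was found in 25 of 94 barcodes at nasal HH15, which is 26.6% (exact 95% interval 18 to 36.7), in 40.0% at HH18 (30.8 to 49.8) and in 33.3% at HH22 (13.3 to 59.0). Blood barcodes, which should lack PITX1, had it in 0%, 0.694% and 1.49%, at median depths of 7545.5 to 13976 UMIs against 5891.5 to 7360.5 UMIs in this ectoderm. Thinned to 1000 UMIs, the nasal ectoderm shares were 6.38%, 10.0% and 16.7%. At somite HH15, 0 of 82 barcodes had PITX1, which allows a share of barcodes with a UMI of up to 3.66% by 3 counts (exact 95% upper limit 4.40%).

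SIX3, a homeobox gene of the anterior head, stood at 28.6, 32.2 and 46.4 CPM in nasal ectoderm and at 0 in all 3 somite libraries. That is at least 22-fold higher against a floor of 3 UMIs over the group (adjusted p = 0.00137, edgeR). SIX3 could pass the filter on low counts only through its nasal counts, so its direction was set by the filter. The locations did not overlap. SOX2, a factor of neural and placodal progenitors, stood at 41.5, 22 and 18.6 CPM against 1.28, 1.88 and 0 CPM (log2 2.99 ± 0.69, adjusted p = 0.0043). Neither gene was confined to ectoderm. The rest of the nasal libraries held SIX3 at 22.4, 9.72 and 7.77 CPM and SOX2 at 28.2, 21.1 and 13.8 CPM. In the rest of the somite libraries SOX2 stood at 13.1, 22.2 and 22.7 CPM.

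PAX6, a regulator of lens and nasal placodes, stood at 114, 57.1 and 27.8 CPM in nasal and 16.7, 7.52 and 0 CPM in somite ectoderm (log2 2.34 ± 0.47, adjusted p = 0.0128). As given above, this direction was favoured by the filter. EYA2, a transcriptional coactivator of placodes, stood at 62.9, 60.1 and 74.2 CPM against 10.3, 0 and 0 CPM (2.83 ± 0.55, adjusted p = 0.00747). PAX6 and EYA2 lost their calls without nasal HH15 or nasal HH18, at adjusted p values of up to 0.16 and 0.0884, and SOX2 without nasal HH15 or somite HH12, at up to 0.1. SIX6 was called at 18.6, 16.1 and 0 CPM against 0 in all somite libraries, so its direction was likewise set by the filter. It lost its call with DESeq2, with the HH stage as a covariate and without somite HH12 (log2 fold change 2.28).

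The factors were found in overlapping sets of barcodes, and at this depth a barcode without a UMI may still express a gene. At nasal HH18, PITX1 was found in 44 barcodes and EYA2 in 31, of which 23 had both. TP63 was found in 33 barcodes of that library and PAX6 in 28, with 10 in common. At nasal HH15, 36 barcodes had PAX6 and 25 had PITX1, with 12 in common. EYA2 was found in 26 barcodes there, 10 of them with PITX1. Whether such overlaps exceed those of unrelated genes was not tested. At least 2 of 6 placodal genes, EYA2, DLX5, SOX2 and PAX6 among them, were found in 39, 30 and 3 nasal and 17, 2 and 0 somite barcodes. Without these barcodes 68 genes were called between the locations. PITX1 (log2 4.0, adjusted p = 0.00138) and SIX3 (3.23, adjusted p = 0.024) kept their calls. EYA2 (2.05, adjusted p = 0.135) and PAX6 (1.85, adjusted p = 0.166) did not, and their own UMIs were among those used to remove barcodes.

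Signals and their modifiers differed in both directions. FGF8, a growth factor of the facial ectoderm, stood at 71.5, 54.2 and 64.9 CPM in nasal and 1.28, 0 and 0 CPM in somite ectoderm (log2 4.21 ± 0.62, adjusted p = 0.000209). BMP4, a ligand of the same tissue, stood at 113, 29.3 and 74.2 CPM against 11.6, 1.88 and 0 CPM (2.79 ± 0.63, adjusted p = 0.0191, but 0.218 without nasal HH15). FGF8 and BMP4 could pass the filter on low counts only through their nasal counts, so their direction was set by the filter. CXCL14, a chemokine of epithelia, was the reverse, at 30, 27.8 and 37.1 CPM in nasal and 322, 1276 and 959 CPM in somite ectoderm (-4.58 ± 0.53, adjusted p = 0.00037). Of the 13 genes tested among 61 ligands and feedback genes in the files, FGF8 and BMP4 were higher in nasal and FGFR2 and CXCL14 in somite ectoderm, and the list median was -0.07. FGFR2, an FGF receptor, lost its call without nasal HH15 or nasal HH18 (up to 0.155) and among barcodes under 1% mitochondrial (-1.63, adjusted p = 0.11).

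WNT6, the ligand of trunk ectoderm, stood at 11.4, 17.6 and 0 CPM in nasal and 61.0, 56.4 and 0 CPM in somite ectoderm. It passed at a log2 fold change of -1.92 ± 0.43 (adjusted p = 0.0207), but not without nasal HH15, nasal HH18 or somite HH12 (up to 0.177) or among barcodes under 1% mitochondrial (-1.14, adjusted p = 0.229). Nasal counts alone could not have carried WNT6 past the filter on low counts, so a somite direction was favoured by the filter. NKD1 and FZD10, a feedback inhibitor and a receptor of the WNT pathway, also passed as higher in somite ectoderm, and the WNT antagonist SFRP1 in nasal ectoderm, of 10 genes tested among 41 (median -1.12). DESeq2 called 1 gene of the list. NKD1 was not called by DESeq2 or with the HH stage as a covariate (up to 0.579), and only 2 of the fits that left out a library tested it. SFRP1 and FZD10 lost their calls without nasal HH15 or nasal HH18 (up to 0.132 and 0.176).

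Retinoic acid enzymes differed by gene. ALDH1A3, which makes retinoic acid from retinal, stood at 60.1, 36.6 and 129.9 CPM in nasal and 0.642, 0 and 0 CPM in somite ectoderm (log2 4.37 ± 0.93, adjusted p = 0.00137). ALDH1A2, with the same reaction, stood at 2.86, 1.47 and 0 CPM against 80.9, 30.1 and 0 CPM (-3.65 ± 0.68, adjusted p = 0.00225, up to 0.101 without nasal HH15, nasal HH18 or somite HH12). DHRS3, which turns retinal back to retinol, stood at 11.4, 10.3 and 9.28 CPM against 117, 65.8 and 178 CPM (-2.80 ± 0.38, adjusted p = 0.000777). ALDH1A3 could pass the filter on low counts only through its nasal counts, and ALDH1A2 and DHRS3 only through their somite counts. Their directions were thus set by the filter. The rest of the somite libraries held more ALDH1A2 than their ectoderm, at 169, 88.3 and 33.4 CPM. Of 8 genes tested among 16, 1 was higher in nasal and 3 in somite ectoderm, the receptor RARB being the third, with a list median of -0.77. RARB lost its call without nasal HH15, nasal HH18 or somite HH12 (up to 0.539).

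HOX transcripts were found almost only in somite ectoderm. Summed over the 36 HOX genes in the files, nasal ectoderm held 5 UMIs in 1489653 and the ectoderm of somite HH12 and HH15 held 1770 in 2088766. Of the 36 genes 12 passed the filter and were called, with a median of -3.91, but a HOX gene could pass only through its somite counts, so the direction of these 12 was set by the filter. HOXA7 stood at 0 in all 3 nasal libraries and at 124, 269 and 284 CPM in somite ectoderm, at least 79.9-fold higher. HOXB5, at 175, 102 and 107 CPM, was at least 77.7-fold higher, HOXD4 at least 44.7-fold, HOXA5 at least 37.1-fold and HOXA4 at least 22.8-fold, each against the floor of 3 UMIs over the nasal group. These bounds pool somite HH12 and HH15. From somite HH15 alone the bound for HOXB5 was 50.4-fold. From somite HH12 alone it was 61.6-fold for HOXA7, 40.2-fold for HOXD4, 32.2-fold for HOXA5 and 17.9-fold for HOXA4.

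Among paralogue groups 2 to 13, which follow order along the HOX clusters, somite ectoderm (HH12 and HH15 summed) held 21 UMIs of group 2, 157 of group 3, 334 of group 4, 483 of group 5, 118 of group 6, 415 of group 7, 97 of group 8 and 63 of group 9. Groups 10 to 13 were at 0. Without nasal HH15 or nasal HH18, HOXA4, HOXA6, HOXB6 and HOXB8 were no longer called (adjusted p up to 0.0575, 0.185, 0.0829 and 0.0708).

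**Figure D3:**
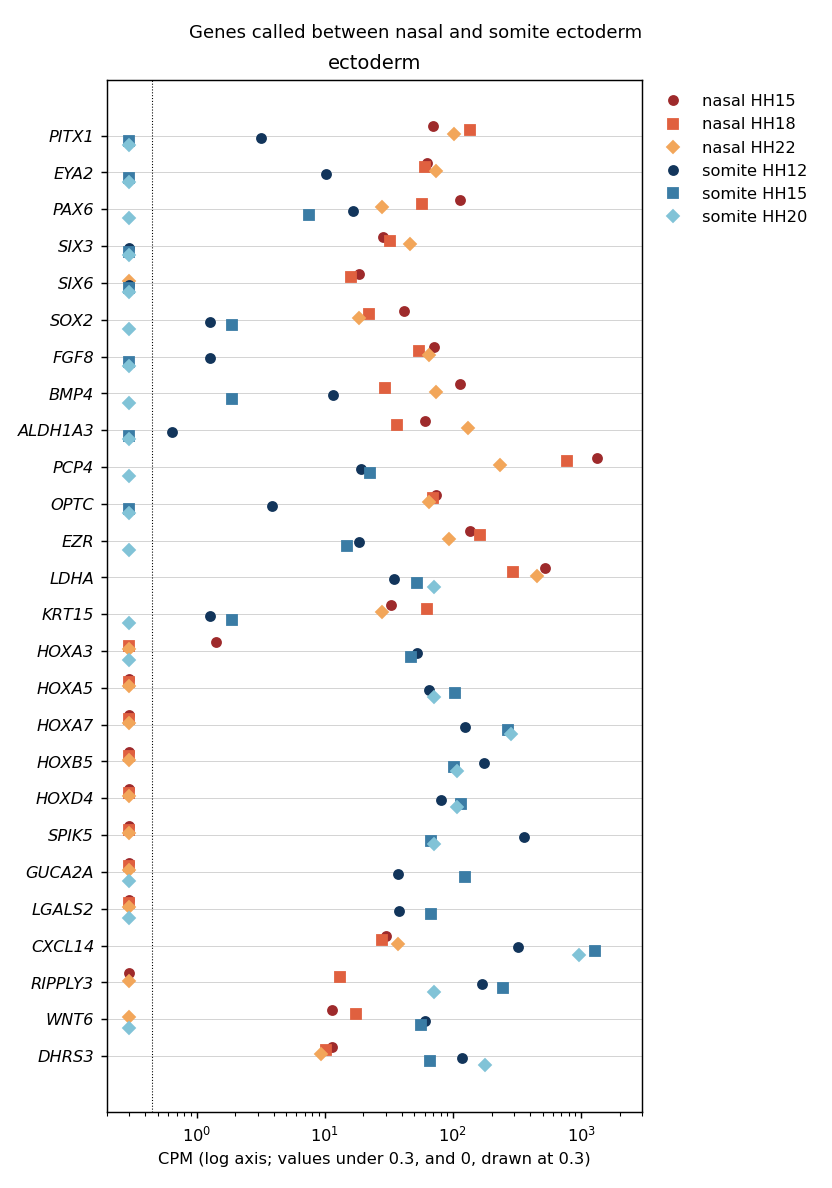
CPM in ectoderm of each library (log axis; values under 0.3, and 0, are drawn at 0.3 left of the dotted line) for genes called between nasal and somite ectoderm, 1 point per library. Reds are nasal and blues somite; over the 5 tested libraries PITX1 to KRT15 lie higher in nasal ectoderm, with overlap for SIX6, and HOXA3 to DHRS3 lie higher in somite ectoderm, while somite HH20, which was not tested, is at 0 for some genes of both sets.

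Other leading nasal genes were PCP4, a calmodulin regulator, SOHO-1, a homeobox gene of chicken sensory organs, OPTC, a small leucine-rich proteoglycan, LDHA, a lactate dehydrogenase, and EZR, which ties the membrane to actin. PCP4 stood at 1319.9, 771 and 232 CPM in nasal and 19.3, 22.6 and 0 CPM in somite ectoderm (log2 5.16 ± 0.59, adjusted p = 0.000319). LDHA stood at 521, 296 and 455 CPM against 34.7, 52.6 and 71.0 CPM (3.32 ± 0.32, adjusted p = 0.000194). It was not confined to ectoderm. Among barcodes under 1% mitochondrial, LDHA stood at 534, 312 and 517 CPM in nasal ectoderm and 474, 271 and 236 CPM in its rest. At somite HH12 and HH15 such ectoderm held 45.3 and 62.6 CPM and its rest 88.5 and 129 CPM. EZR stood at 136, 163 and 92.8 CPM against 18.6, 15.0 and 0 CPM (2.88 ± 0.31, adjusted p = 0.000209).

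SOHO-1 stood at 117, 198 and 64.9 CPM against 2.57, 0 and 0 CPM, and OPTC at 74.4, 70.3 and 64.9 CPM against 3.85, 0 and 0 CPM. SOHO-1 and OPTC could pass the filter on low counts only through their nasal counts, so their direction was set by the filter. Each of these 5 genes, which had been chosen for groups that do not overlap, was called with every library left out in turn. The proteoglycan DCN and the scaffold protein USH1C were called as well, but not without some of the libraries (adjusted p up to 0.312 and 0.349, each without nasal HH18 or somite HH12, DCN also without nasal HH22 and USH1C without nasal HH15). USH1C could pass the filter only through its nasal counts, so its direction was set by the filter.

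Leading somite genes outside the HOX clusters were SPIK5, named as a Kazal-type protease inhibitor, RIPPLY3, a transcriptional corepressor, GUCA2A, a guanylin precursor, LGALS2, a galectin, and TCF15, a factor of somites. SPIK5 stood at 0 in nasal ectoderm and at 358, 67.7 and 71.0 CPM in somite ectoderm, at least 141-fold higher, with adjusted p of 0.00225 and up to 0.0587 without nasal HH15 or nasal HH18. Most of its UMIs came from somite HH12, and from somite HH15 alone the bound was 33.6-fold. SPIK5 could pass the filter on low counts only through its somite counts, so its direction was set by the filter. RIPPLY3 stood at 0, 13.2 and 0 CPM against 167, 246 and 71.0 CPM (-4.53 ± 0.58, adjusted p = 0.000453). Like SPIK5, RIPPLY3 could pass the filter only through its somite counts. DESeq2 did not call RIPPLY3 (adjusted p = 0.252).

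GUCA2A, at 37.3, 124 and 0 CPM in somite ectoderm, and LGALS2, at 37.9, 67.7 and 0 CPM, were at 0 in all nasal ectoderm. They were at least 29.5-fold and 22.6-fold higher, and like SPIK5 both had their direction set by the filter. GUCA2A was not called without nasal HH15 or nasal HH18 (up to 0.0925), and its bound from somite HH12 alone was 18.5-fold. For LGALS2 the bound from somite HH12 alone was 18.8-fold. TCF15 stood at 0, 4.40 and 0 CPM in nasal and 98.3, 43.2 and 0 CPM in somite ectoderm (-3.97 ± 0.71, adjusted p = 0.00186, but 0.0592 with the HH stage as a covariate). TCF15 could pass the filter only through its somite counts, so its direction was set by the filter. It was higher still in the rest of the somite libraries, at 434, 133 and 80.1 CPM, and within HH12 ectoderm it stood at 26.5 CPM in barcodes under 1% mitochondrial and 198 CPM in the others.

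The general epithelial lists were short. As 4.22% of all genes tested were called, a count of 0 in lists of this size is not a result about them. Of 11 ectodermal transcription factors tested, edgeR called 0, with 5 at an unadjusted p under 0.05. It called 0 of 8 junction genes (1 at that unadjusted p), 0 of 6 basement membrane genes (0), 0 of 20 cell cycle genes (1) and 0 of 11 stress genes (2), and DESeq2 called 0 in each of these lists. Over all genes 911 of 5021 had an unadjusted p under 0.05. TP63 had a log2 fold change of -0.46 ± 0.35 (adjusted p = 0.505) and CDH1, E-cadherin, 0.15 ± 0.44 (adjusted p = 0.891). Among 3 keratins tested, KRT15 was higher in nasal ectoderm at 32.9, 63.0 and 27.8 CPM against 1.28, 1.88 and 0 CPM (3.54 ± 0.67, adjusted p = 0.00137). KRT15 could pass the filter on low counts only through its nasal counts, so its direction was set by the filter.

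ANXA2 and S100A11 were higher in nasal ectoderm by 1.16 ± 0.27 and 1.61 ± 0.35 on the log2 scale (adjusted p = 0.0336 and 0.0248), at 1289.9, 1408 and 1206 CPM against 473, 748 and 639 CPM for ANXA2. Both calls were lost without nasal HH15, nasal HH18 or somite HH12 (up to 0.421 and 0.249). FN1, fibronectin, was chosen after its values were seen. It stood at 17.2, 29.3 and 37.1 CPM in nasal and 377, 248 and 355 CPM in somite ectoderm (-3.48 ± 0.31, adjusted p = 0.000194). Within HH12 ectoderm FN1 stood at 101 CPM in barcodes under 1% mitochondrial and 761 CPM in the others, and among barcodes under 1% the log2 fold change was -2.33 ± 0.43 (adjusted p = 0.0112).

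**Figure D4:**
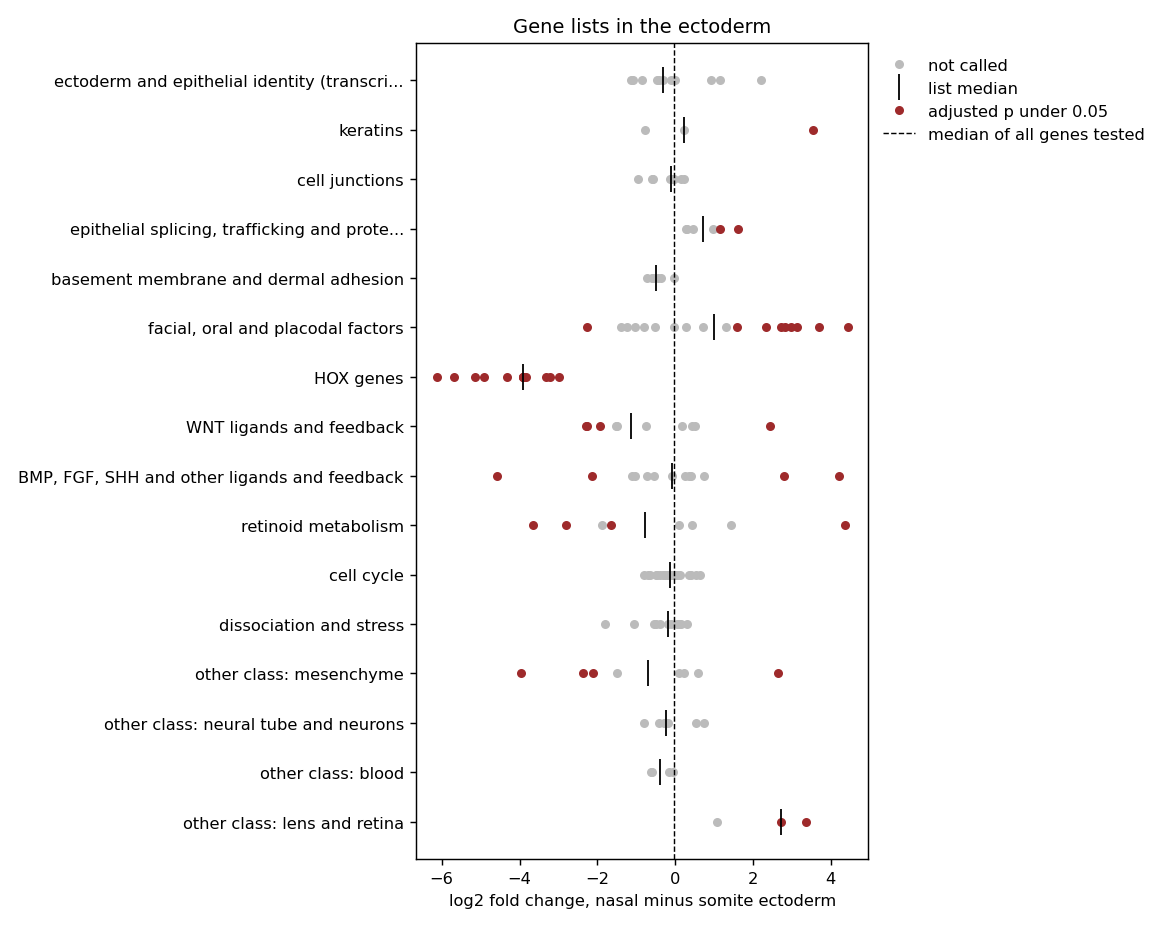
Log2 fold change, nasal minus somite ectoderm, of every tested gene of each list with 3 or more tested genes (red, adjusted p under 0.05; grey, not called; black bar, list median; dashed line, median of all genes tested, -0.02). The 12 HOX genes, which passed the filter through their somite counts, have a median of -3.91, and the facial, oral and placodal list has called genes on both sides, 8 above and 1 below 0.

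The next comparison asked whether locations differed more in ectoderm than elsewhere, and took the location difference in ectoderm minus that in all other barcodes of the same libraries, with the library as a block. The test passed for 556 of 9968 genes (5.58%), 200 (2.01%) toward nasal and 356 (3.57%) toward somite ectoderm. Of the 212 genes called in ectoderm it passed for 108 (50.9%), 105 of them in the direction of the ectoderm difference. Those 212 were called on the same ectoderm counts that enter this test. Their share and direction were thus favoured by the choice and are a description only. Without the block 16 genes passed, DESeq2 called 146, and among barcodes under 1% mitochondrial 64 passed. The small p-values of the blocked edgeR fit lean on a spread pooled over genes. They are not to be read as certainty between 5 libraries. MYL4 had -2.91 ± 0.29 between the locations (adjusted p = 0.000194) and -2.84 ± 0.26 in the interaction (adjusted p = 4.84e-25). Leaving out nasal HH18 gave 284 and leaving out somite HH12 gave 157.

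FGF8, OPTC and BMP4 differed more in ectoderm than in the rest. The rest held 12.3, 9.10 and 1.71 CPM of FGF8 in nasal and 13.2, 5.41 and 0.903 CPM in somite libraries, and the difference of differences was 5.88 ± 0.75 (log2, adjusted p = 7.58e-15). For OPTC it was 4.78 ± 0.56 (adjusted p = 3.63e-16) and for BMP4 4.17 ± 0.49 (adjusted p = 5.82e-16), and these 3 genes passed under every alternative run for the interaction, including the fit without the block. PCP4 reached 3.76 ± 0.23 but not without the block (adjusted p = 0.0941). ALDH1A3 reached 4.14 ± 1.20 (adjusted p = 0.00517), but 0.0749 with DESeq2, 0.222 without the block and 0.597 among barcodes under 1% mitochondrial, and up to 0.235 without somite HH12 or somite HH15.

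In the somite direction, MYL4, a myosin light chain, stood at 27.2, 19.0 and 18.6 CPM in nasal and 170.2, 222 and 71.0 CPM in somite ectoderm, while the rest held 162, 127 and 71.1 CPM and 125, 227 and 208 CPM. Its difference of differences was -2.84 ± 0.26 (adjusted p = 4.84e-25), and it passed under every alternative run for the interaction. EMX2 and RCHY1, a homeobox gene and a ubiquitin ligase, reached -3.72 ± 0.76 and -2.90 ± 0.62, but 0.0891 and 0.0665 as adjusted p without the block. In ectoderm, EMX2 itself lost its call without any 1 of the nasal libraries (up to 0.231), and RCHY1 without nasal HH15, nasal HH18 or somite HH12 (up to 0.485). Like EMX2, RCHY1 could pass the filter of that ectoderm test only through its somite counts, so its direction there was set by the filter. GUCA2A and LGALS2, with 0 UMIs in nasal ectoderm, had fitted differences of -7.09 and -5.24 that depend on the prior count (adjusted p = 4.08e-06 and 0.0229). Without the block they did not pass (0.149 and 0.299). LGALS2 lost its interaction in 13 of 19 alternatives, among them without nasal HH15 or nasal HH18 (up to 0.279) and without somite HH15 (-4.15). Without barcodes that met another cell type's rule it fell to -2.76 (adjusted p = 0.518, edgeR), and DESeq2 gave an adjusted p of 0.195. GUCA2A did not pass with EPCAM at 2 UMIs or more (0.117) or after thinning (0.451).

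**Figure D5:**
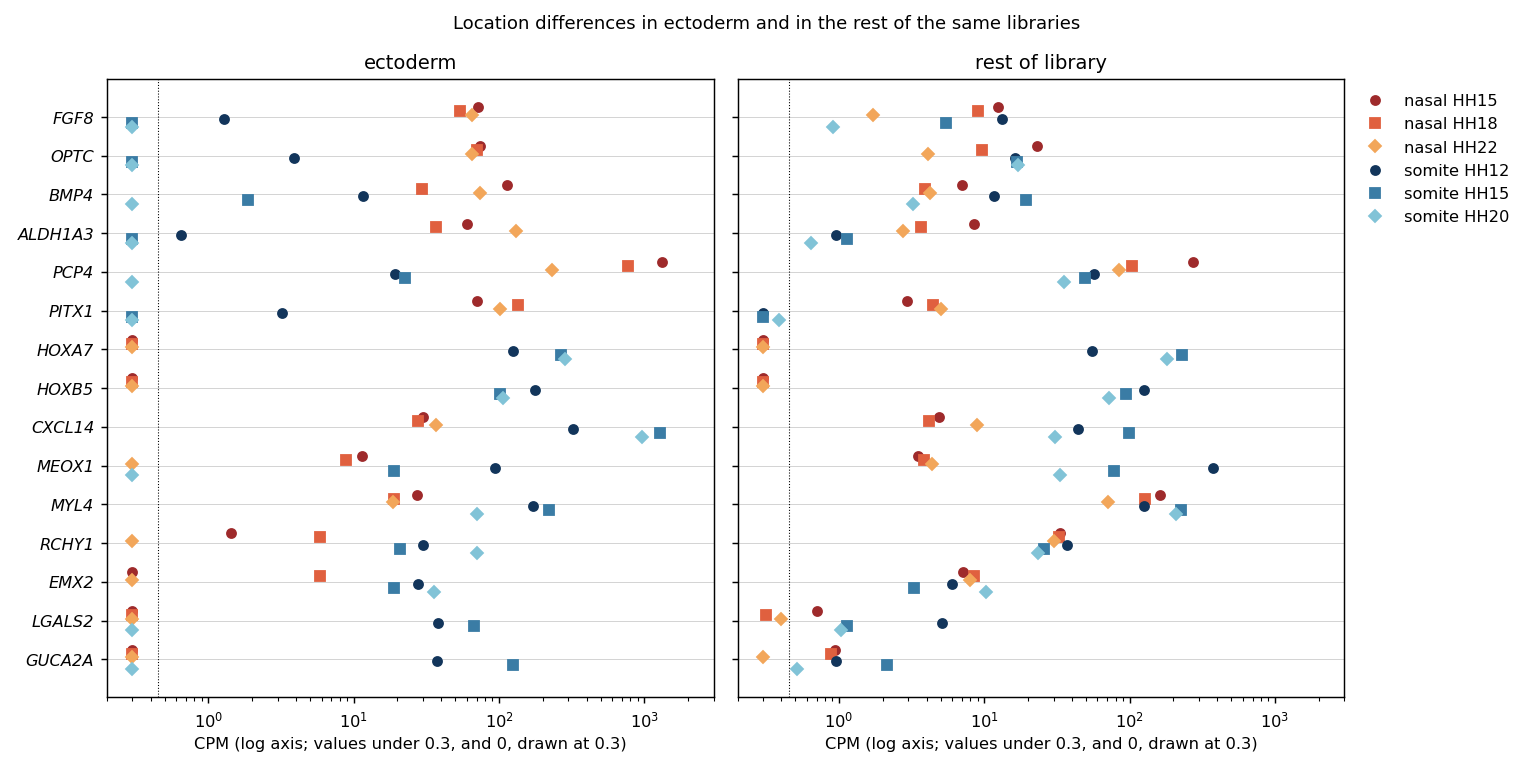
CPM per library (log axis; values under 0.3, and 0, are drawn at 0.3) in ectoderm (left) and in all other barcodes of the same library (right), 1 point per library. FGF8, OPTC and MYL4 separate the locations in ectoderm and overlap between them in the rest, and HOXA7 and HOXB5 separate them in both.

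HOX genes showed the location difference in the rest as well. HOXA7 stood at 0 in the rest of all 3 nasal libraries and at 55.0, 229.8 and 181 CPM in the rest of the somite libraries. The interaction did not pass for HOXA7 (adjusted p = 1), SIX3 (0.872) or PITX1 (2.52 ± 1.12, 0.487), which does not show that the differences are equal. PITX1 in the rest was at 2.91, 4.43 and 5.0 CPM in nasal and 0.284, 0.225 and 0.387 CPM in somite libraries. CXCL14 in the rest was at 4.89, 4.18 and 8.95 CPM against 44.0, 98.1 and 30.4 CPM, and its interaction missed the threshold (-0.89 ± 0.28, adjusted p = 0.0597).

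The rest includes the 92 nasal and 144 somite barcodes with EPCAM and 1 of the 4 genes. Blood barcodes, which should lack HOXA7, had it in 14.5% at somite HH20 (exact 95% interval 9.40 to 20.9), at a median of 11230 UMIs. In the ectoderm of somite HH15, at a median of 6068.5 UMIs, HOXA7 was found in 63.4% (52.1 to 73.8), against 5.77% (1.21 to 15.9) of the blood barcodes of that library at 6717 UMIs, and in 23.2% after thinning to 1000 UMIs.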

How the data were processed

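The authors deposited UMI counts per gene and barcode for 6 10x Chromium 3' libraries, mapped to GRCg6a by Cell Ranger using gene models lengthened at their 3' ends, and not normalized. The gene and barcode names are other deposited tables. Counts were summed per library over ectoderm barcodes and over all others, in numpy 2.4.6. Sums were normalized by TMM, filtered with filterByExpr and tested with edgeR 4.0.16 (quasi-likelihood, prior count 2, Benjamini-Hochberg adjustment over all genes tested), in R 4.3.3. No barcode was removed in the main analysis. The study's quality filters, Scrublet in scanpy 1.11.5 (0 to 6 ectoderm barcodes removed per library), DESeq2 1.42.0, thinning to 1000 UMIs and stricter rules were alternatives. The script was tested on simulated data. Ectoderm and rest of a library deviated together (correlation 0.226 to 0.635 over 5021 genes), so the interaction had the library as a block. Blood barcodes had at least 20% haemoglobin UMIs.

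Members and lists were chosen with earlier results of these data known. Named genes were those of the rule with PITX1, list genes reaching 10 CPM, and, among called genes of 50 CPM in 1 location whose groups did not overlap, the 12 that changed most each way. The 15 genes against the rest are described where they are given, and the interaction gave up to 5 genes each way. FN1 and ND3 were named after their values were seen. Some genes of the lists are not reported here by name, but they are counted.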

Additional observations from a re-analysis of the deposited data

Results flagged for a closer look

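The following genes were called between nasal and somite ectoderm, and their location difference in ectoderm differed from that in the other barcodes of the same libraries by the interaction test of edgeR (adjusted p under 0.05). No group held enough libraries to test for a single outlying one. Values are the difference of differences on the log2 scale. Of these 25 genes, 6 passed without the block (EZR, BMP4, FGFR2, OPTC, FGF8 and MYL4), 18 with DESeq2 and 12 among barcodes under 1% mitochondrial. EZR (1.65, adjusted p = 0.0707) and FGFR2 (-1.27, adjusted p = 0.364) did not pass among barcodes under 1% mitochondrial. Toward nasal ectoderm the flagged genes were FGF8 at 5.88, OPTC at 4.78, BMP4 at 4.17, ALDH1A3 at 4.14, PCP4 at 3.76, EZR at 2.73, LDHA at 2.03 and DCN at 0.74. DCN belongs to the mesenchyme list. It stood at 72.9, 314 and 232 CPM in nasal ectoderm and at 226, 293 and 149 CPM in its rest. In somite ectoderm it stood at 19.9, 50.8 and 213 CPM, against 39.6, 134 and 187 CPM. DESeq2 did not pass the interaction of DCN (adjusted p = 0.669). Of the transcription factors, SOX2 reached 3.44, PAX6 3.05 and EYA2 2.28, with adjusted p of 0.0594, 0.0665 and 0.231 without the block. Without placodal barcodes SOX2 (0.27) and EYA2 (0.145) did not pass either. LDHA did not pass without the block (0.234), and was at 1.28 among barcodes under 1% mitochondrial (adjusted p = 0.00364). S100A11 and ANXA2 reached 1.23 and 1.19, and 0.41 and 0.27 among barcodes under 1% mitochondrial, where neither passed (adjusted p = 0.584 and 0.803). In the rest the locations overlapped for PAX6, at 46.0, 39.1 and 14 CPM in nasal and 65.2, 51.0 and 32.6 CPM in somite libraries.

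Toward somite ectoderm they were GUCA2A at -7.09, LGALS2 at -5.24, EMX2 at -3.72, RCHY1 at -2.90, MYL4 at -2.84, FGFR2 at -2.79, PRRX1 at -2.71, NKD1 at -2.01, RARB at -1.95, ND3 at -1.94 and FN1 at -1.63. PRRX1 had been called between the locations, but lost that call in 8 of 14 alternatives (adjusted p up to 0.304), 4 of them with 1 library left out (nasal HH15, nasal HH18, somite HH12 or somite HH15). PRRX1 and NKD1 did not pass the interaction without the block (0.299 and 0.237) or with DESeq2 (0.091 and 0.314). NKD1 did not pass without any 1 of the tested libraries (up to 0.567). DCN did not pass without nasal HH18, nasal HH22, somite HH12 or somite HH15 (up to 0.949), and RARB without somite HH12 (0.292) or among barcodes under 1% mitochondrial (0.02, adjusted p = 1). ND3, a mitochondrial gene named after its values were seen, and FN1 did not pass among barcodes under 1% mitochondrial (-0.65 and -0.74, adjusted p = 0.584 and 0.729).

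MEOX1, at 3.17, went against its ectoderm difference: it was higher in somite ectoderm, and the location gap was wider in the rest, at 3.49, 3.86 and 4.35 CPM of MEOX1 against 374, 78.2 and 32.9 CPM. In the ectoderm test MEOX1 could pass the filter on low counts only through its somite counts, so its direction there was set by the filter. Its ectoderm call was lost in 7 of 13 alternatives, among them without any 1 of the nasal libraries and without somite HH12 (-0.81). Its interaction did not pass without the block (0.36) or without placodal barcodes (0.723).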

How the results depend on the processing

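Between the locations, 212 genes were called in the main fit, 85 with DESeq2, 445 without the filter on low counts, 128 with at least 3 of the 4 genes, 21 after thinning to 1000 UMIs (of 1385 tested) and 53 with the HH stage as a covariate. Leaving out 1 library gave 30 to 416. Of alternatives chosen after seeing the data, the fit with somite HH20 called 169, barcodes under 1% mitochondrial 135 and ectoderm without placodal barcodes 68. Leaving out somite HH20 is the main fit itself.

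The interaction gave 556 genes in the main fit, 146 with DESeq2, 266 with EPCAM at 2 UMIs or more, 255 with at least 3 of the 4 genes, 296 without KRT24, 61 after thinning, 16 with no replicate block and 157 to 551 with 1 library left out. Alternatives chosen after seeing the data gave 509 with somite HH20, 64 under 1% mitochondrial and 372 without placodal barcodes. DESeq2 called 48.6% of its interaction genes toward nasal, against 36% in edgeR.

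The nasal minus somite share was -0.635 percentage points in the main analysis and 0.0649 with EPCAM at 2 UMIs or more, and ran from -1.94 to 0.857 when 1 library was left out. Genes 2-fold higher or lower than the rest numbered 161 in the main count and 37 under 1% mitochondrial.

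Of 912 alternative values of 55 named called genes, 773 kept the call, 139 lost it and 0 reversed. These genes were chosen among the called ones, and many had a direction set by the filter, so kept calls were favoured. Of all 212 called genes, 84 were called with DESeq2 and 49 with the HH stage as a covariate. Without nasal HH15 36 of them were called, and without nasal HH18 30. No paired analysis was possible because nasal and somite libraries share only the stage HH15. Depth limits the ectoderm of nasal HH22, where 1 UMI was worth 9.28 CPM. Stricter rules left fewer than 10 ectoderm barcodes at nasal HH22 and so 4 libraries. The cause was not tested for any of these.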
